A study of Mus musculus with 6 samples.

Results

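Cells that still carried the Oct4 reporter after 7 days in neural aggregates were compared with the embryonic stem cells (ESC) from which the aggregates were grown. The cells are from OLV2-1, a mouse ESC line with the fluorescent protein Venus knocked into the Oct4 (Pou5f1) locus, so every group shares this reporter and every group was sorted as Venus-positive. The members are the 2 arrays titled Day7_Oct4-Venus+ and the 2 titled ESC, chosen from the sample titles, 4 of the 6 arrays in the series. The ESC were undifferentiated and, per the sorting protocol, Venus+/CD31+ (CD31 is the product of Pecam1, a surface protein of naive stem cells). The day 7 cells were the Oct4-Venus+ fraction of SFEBq aggregates, a serum-free floating culture that pushes ESC towards neural tissue, and no CD31 gate is named for them. The other 2 arrays hold the Oct4-Venus+/Pecam1- fraction of SFEBq aggregates at day 3, labelled EpiSC-like after epiblast stem cells. They are used here only to place the day 7 values in the culture and to help estimate the spread.

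Handling differed with the group. Trypsin was used on ESC and on day 3 aggregates, followed by 1 hour of recovery and antibody staining, but EDTA in saline on day 7 aggregates, so differences of this handling cannot be told apart from the day 7 state. All cells come from 1 line, and nothing in the labels shows that arrays within a group were from separate cultures, so p-values here reflect just the spread of these samples, which may be technical. In sorted bulk RNA, a lower level in each cell and fewer cells with the transcript cannot be told apart.

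Oct4 is a POU-domain transcription factor that, with Sox2 and Nanog, holds stem cells and the early epiblast in the pluripotent state. Naive ESC depend on LIF, which acts through Stat3, and their exit from that state is driven by FGF signalling through ERK, which also induces its own inhibitors. As epiblast cells turn to neural progenitors, genes such as Sox1, Zic1 and Fabp7 come on, BMP signalling and the Id genes it induces are low, and Oct4 is normally shut off.

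Signals are the deposited intensities, and differences are given as day 7 minus ESC on the scale of log2(signal + 16), which understates the change of dim genes. Each gene is read by its brightest probe set, and 18193 genes were tested with limma over all 6 arrays. A gene is called higher or lower where its p-value, adjusted over all genes, is under 0.05. Errors of differences are standard errors. The arrays numbered 1 and the arrays numbered 2 are called 2 array sets below, and each holds all groups. The labels give replicate numbers and name no batch, so the sets are told only from the signals. The top signal was 30793 to 36841 in the first set and 63296 to 66643 in the second, and hybridization control medians were 2885 to 3695 and 5086 to 6479. The actin 3' minus 5' log2 difference, a measure of RNA length, was 0.71 and 0.94 on the day 7 arrays against 0.46 to 0.58 on the others, and that of Gapdh at day 7, -0.12 and -0.18, lay inside the range of the others. The poly-A controls did not follow this split. Their medians were 236 to 348 on 4 arrays, the second day 7 array among them, but 40.7 on the second ESC array and 39.0 on the second EpiSC-like array.

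Of the 18193 genes, 137 (0.753%) were higher and 52 (0.286%) lower in day 7 cells. These shares are the background for the called counts of every list below. The median difference over all genes was 0.02, and 4836 genes (26.6%) had both day 7 arrays above both ESC arrays while 4278 (23.5%) had both below. At an unadjusted p under 0.05, 2022 genes (11.1%) were higher and 1309 (7.20%) lower. Centring each array on its median moves the median of all genes by over 0.1, from 0.02 to -0.20, and the split to 92 higher and 82 lower, and quantile normalization gives 91 and 55. Among called genes 28 had an ESC mean below the pseudocount of 16, so the order of the largest rises is not a ranking of folds. For 7096 genes (39.0%) the 95% interval of the difference lay between -1 and 1, that is within 2-fold, and this is the sense of "kept" below. That share is the background for the kept counts of every list. Dim genes fall into that range more easily, because the pseudocount compresses them. Of 62 called genes named in the comparisons, 15 were not called when a gene's probe sets were averaged in place of taking the brightest, and that value stands beside each of them.

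**Figure D1:**
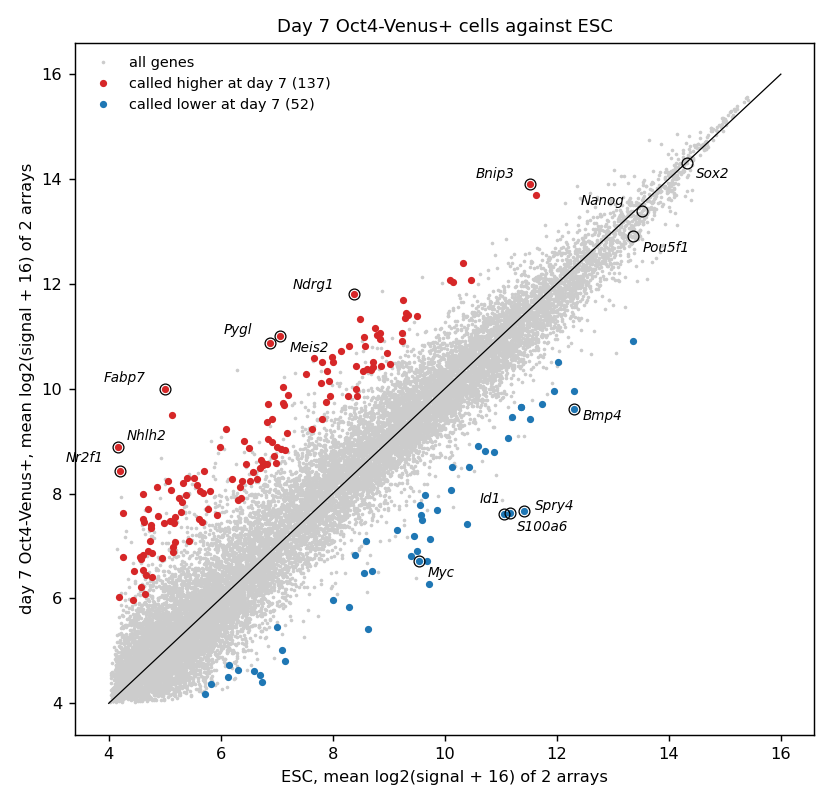
Mean log2(signal + 16) of the 2 ESC arrays (x axis) against that of the 2 day 7 arrays (y axis) for 18193 genes, with the 137 genes called higher in red and the 52 called lower in blue; the line marks equal levels. Sox2, Nanog and Pou5f1 lie near the line at the bright end, while Fabp7, Nhlh2 and Nr2f1 rise from the dim end and Spry4, S100a6, Id1 and Myc fall from mid levels.

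The 4 genes given as marks of these cells were read first. Fabp7, which encodes the fatty acid binding protein of radial glia and neural progenitors, read 25.9 and 8.49 on the ESC arrays, 702 and 797 at day 3 and 666 and 1511 at day 7. At day 7 Meis2, which encodes a TALE homeodomain partner of Hox and Pax proteins, read 1742 and 2384, against 1248 and 1961 at day 3 and 129 and 108 in ESC. Both genes were already high in the day 3 cells, whose arrays overlap those of day 7. Pygl, the liver-type glycogen phosphorylase that releases glucose units from glycogen, read 1621 and 2135 at day 7, 244 and 322 at day 3 and 107 and 96.9 in ESC. In ESC Spry4, a Sprouty inhibitor of signalling by growth factor receptors, read 3584 and 2055, with 833 and 442 at day 3 and 167 and 207 at day 7. For these 2 genes the day 7 arrays lie outside the range of all 4 other arrays, Pygl above and Spry4 below. The differences were 4.99 ± 0.44 (adjusted p = 0.0291) for Fabp7, 3.94 ± 0.31 (adjusted p = 0.0221) for Meis2, 3.99 ± 0.26 (adjusted p = 0.0221) for Pygl and -3.76 ± 0.40 (adjusted p = 0.0291) for Spry4.

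Sox2 and Nanog were kept within 2-fold of their ESC levels at day 7, Nanog not in every setting. At day 7 Sox2, the partner of Oct4 on DNA, read 18018 and 22517, against 16284 and 15215 at day 3 and 19160.2 and 22030.3 in ESC. Nanog, the homeodomain factor of the naive state, read 9801 and 14048 on the ESC arrays, 5549.6 and 5573 at day 3 and 10058 and 11456 at day 7. The arrays of the 2 groups overlap for both genes. The 95% interval of the difference ran from -0.60 to 0.55 for Sox2 and from -0.76 to 0.50 for Nanog, both within 2-fold. The interval of Nanog reached past 2-fold after centring (-0.34), without ESC replicate 1 (-0.39) and without day 7 replicate 2 (-0.22), and that of Sox2 did so in none of the settings tried. For Pou5f1 itself the signals were 7927 and 14055 in ESC, 6244 and 9923 at day 3 and 6533 and 9062 at day 7, a difference of -0.46 ± 0.39 whose interval, -1.38 to 0.47, reaches past 2-fold lower, so its level is not bounded as tightly as that of Sox2. Pecam1, for which the gates differed, read 728 and 343 in ESC, 401 and 177 at day 3 and 767 and 488 at day 7 (0.28 ± 0.51, adjusted p = 0.814), and its sign turns with the array left out, to -0.24 without ESC replicate 2 and to -0.04 without day 7 replicate 1.

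Of the 15 measured genes on the core pluripotency list, 6 were kept within 2-fold, a share near the 39.0% of all genes, and limma called 0 in either direction, with 0 higher and 3 lower at an unadjusted p under 0.05 (11.1% and 7.20% of all genes). The list median was -0.46, and 15 of 15 values were below 0, as against 51.3% of all genes above 0. Both day 7 arrays lay below both ESC arrays in 7 of 15, Rif1 among them, and above in 0, beside 23.5% and 26.6% of all genes. Besides Sox2 the 6 kept genes are the zinc-finger factor gene Sall4 (-0.15 ± 0.24), Trim28, whose product silences retroviruses with zinc-finger proteins (-0.12 ± 0.30), Rif1, a regulator of replication timing (-0.32 ± 0.22), Trim71, an RNA-binding ubiquitin ligase gene (-0.24 ± 0.27), and Zfp281, a zinc-finger partner of the Oct4 and Nanog network (-0.03 ± 0.22). The lowest values were those of Dppa2 (-1.09 ± 0.24, adjusted p = 0.0936), which read 11579 and 11805 in ESC and 5338 and 5646 at day 7, and of the RNA-binding protein gene Lin28a (-1.05 ± 0.45, adjusted p = 0.279). Both Dppa2 values at day 7 lie below both ESC values, but the gene was not called.

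Of 21 measured genes on the naive list 3 were kept within 2-fold (Sox2, Nanog and the orphan receptor gene Nr5a2, -0.15 ± 0.28), 1 was called lower and 0 higher, and at an unadjusted p under 0.05 10 were lower and 0 higher (7.20% and 11.1% of all genes). The list median was -0.73, with both day 7 arrays below both ESC arrays in 14 of 21 genes (23.5% of all genes). Klf5, the Krüppel-like factor gene called lower, read 3511 and 7338 on the ESC arrays, 851 and 768 at day 3 and 1057 and 907 at day 7 (difference -2.36 ± 0.37, adjusted p = 0.0495). Its day 7 and day 3 values lie together, far below ESC, and it was not called in other settings (-1.07 with its probe sets averaged, adjusted p = 0.138; adjusted p = 0.0516 under quantile normalization). The nuclear receptor gene Nr0b1 (-1.94 ± 0.32, adjusted p = 0.0522), the homeobox gene Gbx2 (-1.83 ± 0.32, adjusted p = 0.0589), Stat3 (-1.65 ± 0.40), Klf4 (-1.42 ± 0.55) and Esrrb (-1.23 ± 0.33) followed without passing. At the other end Prdm14, a repressor of the formative program that is also needed by germ cells, read 1105 and 1211 in ESC and 1549.5 and 1548 at day 7 (0.42 ± 0.30, adjusted p = 0.521), and Dppa3 and Dppa5a stood at 0.28 ± 0.45 and 0.07 ± 0.51.

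**Figure D2:**
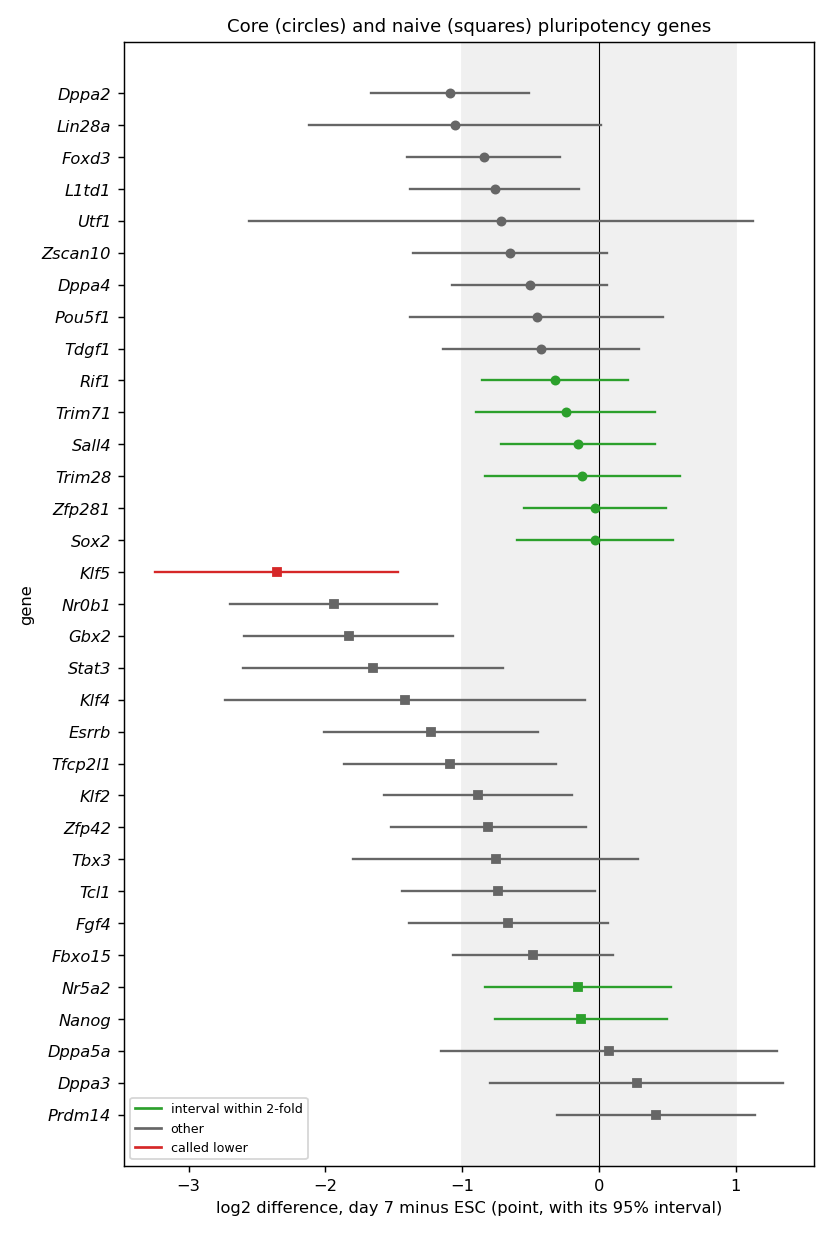
Log2 difference, day 7 minus ESC, of each measured core (circles) and naive (squares) pluripotency gene with its 95% interval; genes on both lists are drawn once, with the core genes. The grey band spans a 2-fold change either way. Sox2 and Nanog have intervals inside it, and Klf5, in red, is the member called lower.

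Most naive genes read higher at day 7 than at day 3. Against the EpiSC-like arrays the naive list median was 0.74 and 18 of 21 values were above 0, where 47.7% of all genes were, with 0 called higher and 1, Gbx2, called lower. The day 3 cells were selected as Pecam1-negative and the day 7 cells were not, and these gates cannot be told apart from the day. Nanog read 9801 and 14048 in ESC, 5549.6 and 5573 at day 3 and 10058 and 11456 at day 7, and its day 7 arrays lie above both day 3 arrays. Against day 3 its difference was 0.95 ± 0.26 (adjusted p = 0.195). The summed signal of the naive list was 153159 and 219004 in ESC, 93090 and 105630 at day 3, and 117560 and 153665 at day 7, so in each array set day 7 lies between day 3 and ESC.

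Of 9 measured DNA methylation genes limma called 0 in either direction (1 lower and 0 higher at an unadjusted p under 0.05, beside 7.20% and 11.1% of all genes), and 4 were kept within 2-fold, a share near the 39.0% of all genes. Dnmt3b, a de novo methyltransferase gene that is high in the epiblast, read 10402 and 7148 in ESC, 17818 and 22681 at day 3 and 10850.4 and 7356 at day 7. Its day 7 arrays lie on top of the ESC arrays and below both day 3 arrays. The interval of its difference from ESC lay within 2-fold, but not in every setting. It reached past 2-fold under quantile normalization (0.11), without ESC replicate 1 (0.32) or 2 (-0.22), and without day 7 replicate 1 (-0.23) or 2 (0.33). The maintenance enzyme gene Dnmt1 (-0.25 ± 0.22) and its recruiting factor gene Uhrf1 (-0.05 ± 0.34) were kept, while Tet1 (-0.80 ± 0.37), Dnmt3l (-0.85 ± 0.26) and Dnmt3a (1.12 ± 0.59) had intervals reaching past 2-fold and were not called.

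Among nuclear receptor genes whose products bind the hormone response elements of the Oct4 promoter, 1 of 12 was called higher and 0 lower, with a list median of -0.19. At day 7 Nr2f1, which encodes COUP-TFI, an orphan receptor known to repress Oct4 in differentiating cells, read 175 and 611, against 22.0 and 39.8 at day 3 and 1.69 and 2.92 in ESC. Its 2 ESC values are below the pseudocount and the day 7 values lie far apart, yet both exceed all 4 other arrays (4.24 ± 0.54, adjusted p = 0.0371). Nr2f2, encoding COUP-TFII, read 36.9 and 16.7 in ESC and 74.9 and 185 at day 7 (1.70 ± 0.44, adjusted p = 0.123). The activating receptor Nr5a2 was kept, as given above, and Nr6a1, a repressor of Oct4 in the embryo, stood at -0.01 ± 0.34. The 250 bases before the first RefSeq start of Pou5f1 (GRCm38.p6) are shown because these receptors bind repeats of AGGTCA or GGGTCA. The capitals mark every match to either motif on either strand, one beginning 219 and the other 33 bases before the start. The same length before the second RefSeq start of Pou5f1 holds 0 matches and is not shown.

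Pou5f1, chr17:35505782-35506031, plus strand: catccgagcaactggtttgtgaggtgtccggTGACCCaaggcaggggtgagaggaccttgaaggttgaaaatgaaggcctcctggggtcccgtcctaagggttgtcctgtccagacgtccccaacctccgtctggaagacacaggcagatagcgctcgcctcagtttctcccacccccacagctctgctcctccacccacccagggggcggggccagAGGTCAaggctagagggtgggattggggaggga

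AGGTCA was found on either strand in 14.0% and GGGTCA in 11.6% of the 32851 mouse promoters of that length, so a match is a description of the letters and not evidence of a bound receptor.

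Of the 14 measured genes of the LIF-STAT3 response 3 were called lower and 0 higher (0.286% and 0.753% of all genes). The list median was -0.88. Tgm1, a transglutaminase gene, read 54.2 and 69.6 at day 7, 29.3 and 42.1 at day 3 and 891 and 768 in ESC. In ESC Bcl3, a nuclear cofactor of NF-kappa-B that is induced by Stat3, read 762 and 854, with 42.0 and 31.9 at day 3 and 85.3 and 91.5 at day 7. For both genes all 4 SFEBq arrays lie far below ESC, and day 7 lies above day 3. The differences from ESC were -3.44 ± 0.25 (adjusted p = 0.0221) for Tgm1 and -2.98 ± 0.23 (adjusted p = 0.0221) for Bcl3. Spry4, given above, is the other called member. Socs3, the inhibitor that LIF induces, read 4369.9 and 3849.7 in ESC, 188 and 276 at day 3 and 1024 and 1840.0 at day 7, a difference of -1.57 ± 0.35 that was not called (adjusted p = 0.0936), with day 7 between day 3 and ESC. The receptor genes did not follow a single course, with Lifr at -0.85 ± 0.50 and Il6st, its signalling partner, at 0.22 ± 0.23 and kept within 2-fold.

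Feedback and target genes of FGF-ERK signalling moved in both directions, with a list median of -0.45. Of 20 measured, 4 were called lower and 2 higher (0.286% and 0.753% of all genes). At day 7 Spry2, another Sprouty inhibitor, read 798 and 839, against 2464 and 1944 at day 3 and 3572 and 3248 in ESC. Mras, which encodes a small GTPase upstream of Raf, read 402 and 358 on the ESC arrays, 47.8 and 67.2 at day 3 and 16.3 and 40.7 at day 7. Myc, the growth-promoting transcription factor that ERK and LIF both sustain, read 908 and 579 on the ESC arrays, 756 and 538 at day 3 and 94.5 and 84.6 at day 7. Spry2 and Myc were lower on both day 7 arrays than on all other arrays, and at day 3 lay much closer to ESC, while Mras was already low at day 3. Their differences from ESC were -2.04 ± 0.24 (adjusted p = 0.0299), -3.21 ± 0.33 (adjusted p = 0.0291; -2.61 with its probe sets averaged, adjusted p = 0.0525) and -2.81 ± 0.31 (adjusted p = 0.0291). The ETS factor gene Etv4 read 1050.4 and 462 in ESC and 133 and 31.1 at day 7 and was not called (-3.09 ± 0.67, adjusted p = 0.0884), whereas its relative Etv5 was kept at 10759.8 and 10171 in ESC and 11928 and 11395 at day 7 (0.16 ± 0.23).

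The 2 members called higher were Ier3 and Dusp5. At day 7 Ier3, an early response gene that is a target of several stress and growth pathways, read 1711 and 2371, against 558 and 433 at day 3 and 364 and 360.4 in ESC. Dusp5, a nuclear ERK phosphatase gene, read 266 and 236 at day 7, 237 and 118 at day 3 and 30.7 and 36.2 in ESC. All 4 SFEBq arrays exceed ESC for Dusp5, and day 7 exceeds all other arrays for Ier3. The differences were 2.43 ± 0.27 (adjusted p = 0.0291) and 2.43 ± 0.34 (adjusted p = 0.0390). Dusp6, the cytoplasmic ERK phosphatase gene often read as a gauge of FGF signalling, stood at -0.89 ± 0.26 with 3385 and 2889 in ESC and 1955 and 1448 at day 7, and it was not called (adjusted p = 0.150). Of the ligands and receptors 1 of 15 was called, Fgf5, and Fgf4 (-0.66 ± 0.30), Fgfr1 (0.65 ± 0.25) and Fgfr2 (0.16 ± 0.23, kept) were not.

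BMP signalling genes split by member. Of 24 measured 2 were called lower and 1 higher, with a median of 0.30. In ESC Id1, the BMP-induced inhibitor of basic helix-loop-helix factors, read 2148 and 2108, with 487 and 887 at day 3 and 129.9 and 248 at day 7. At day 7 Bmp4, the ligand that sustains ESC in serum-free LIF culture, read 657 and 887, against 802 and 893 at day 3 and 3411 and 7495 in ESC. Id1 was intermediate at day 3, while Bmp4 was as low at day 3 as at day 7. The differences were -3.45 ± 0.39 (adjusted p = 0.0291) and -2.70 ± 0.40 (adjusted p = 0.0442). The related Id3 read 1046 and 1209 in ESC and 342 and 400.4 at day 7 (-1.56 ± 0.35, adjusted p = 0.0936) and Id2 1838 and 892 in ESC and 859.6 and 846 at day 7 (-0.58 ± 0.38), neither called. Id4, the family member of neural progenitors, which was called higher, read 704 and 529 on the ESC arrays, 544 and 504 at day 3 and 2640.3 and 2532 at day 7 (difference 2.05 ± 0.24, adjusted p = 0.0319). Both day 7 arrays exceed all 4 others for Id4, and ESC and day 3 overlap.

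**Figure D3:**
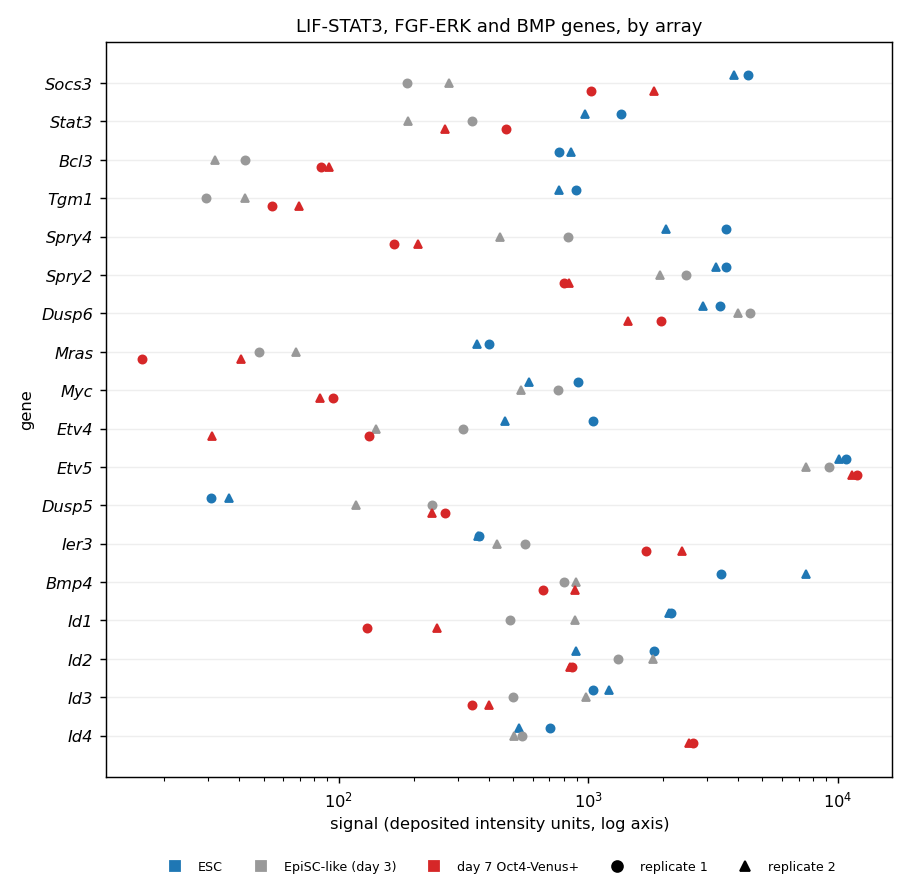
Signal on each of the 6 arrays (log x axis) of genes of LIF-STAT3, FGF-ERK and BMP signalling; circles are replicate 1, triangles replicate 2. Spry4, Spry2, Mras, Myc and Id1 are lower on both day 7 arrays than on the 4 others, Ier3 and Id4 are higher, and Etv5 keeps its level.

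Among other signalling lists, those of Nodal-activin, Wnt and Notch held 1 called gene each and the Myc family 2. Smad3, a transducer of Nodal and activin, rose from 379 and 407 in ESC to 1246 and 1330.4 at day 7 (1.67 ± 0.22, adjusted p = 0.0371; 0.49 with its probe sets averaged, adjusted p = 0.311), and was the 1 called of 14 Nodal-activin genes, 6 of which were kept, Nodal (0.04 ± 0.23) and Lefty2 (0.02 ± 0.40) among them. Sfrp2, a secreted Wnt antagonist gene, was the 1 of 23 Wnt genes (2.22 ± 0.29, adjusted p = 0.0375), and Lef1, a Wnt effector gene, had both day 7 arrays above both ESC arrays without passing (3.09 ± 0.57, adjusted p = 0.0665). In the Notch list of 18 the 1 called gene was Hes6 (2.32 ± 0.25, adjusted p = 0.0291), an inhibitor of Hes1 that favours neurogenesis, and 7 were kept. Hes6 was highest at day 3, with 2336 and 2129 there and 1193 and 988 at day 7. Sfrp2 was already up at day 3, with 1191 and 1496 there and 1370 and 911 at day 7. Smad3 read 689 and 691 at day 3, between ESC and day 7. In the Myc family Myc was joined by Mxd4 (2.33 ± 0.34, adjusted p = 0.0442; 1.11 with its probe sets averaged, adjusted p = 0.0986), which encodes a Max partner that opposes Myc, and Mycn stood at -0.41 ± 0.27 with 6326 and 4385 in ESC and 4069.8 and 3829 at day 7. Mxd4 too was already up at day 3, with 286 and 293 there and 180 and 325 at day 7. These 4 lists had medians of 0.03, 0.41, 0.37 and -0.05. The kept counts, 6 of 14 Nodal-activin and 7 of 18 Notch genes, are shares near the 39.0% of all genes.

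Some genes of neural progenitors were higher on the same day 7 arrays. Bulk RNA does not show whether the cells that held them also held Sox2 and Nanog. Of 19 measured progenitor genes 4 were called higher and 0 lower, with a median of 0.76 and both day 7 arrays above both ESC arrays in 12 (26.6% of all genes). Besides Fabp7 and Id4 these are Sox1 and Pax3. Sox1, the earliest specific factor of the neural plate, read 11.7 and 5.70 on the ESC arrays, 347 and 557 at day 3 and 205 and 135 at day 7. At day 7 Pax3, a paired-box factor of dorsal neural tube and neural crest, read 154 and 221, against 108 and 86.6 at day 3 and 14.0 and 35.2 in ESC. Both day 3 arrays lie above both day 7 arrays for Sox1 and below them for Pax3. Against ESC the difference was 2.90 ± 0.33 for Sox1 (adjusted p = 0.0291; 1.42 with its probe sets averaged, adjusted p = 0.0765) and 2.36 ± 0.34 for Pax3 (adjusted p = 0.0424; 1.85 with its probe sets averaged, adjusted p = 0.0820). Pax6, the paired-box factor of forebrain progenitors, was kept at its ESC level (189 and 213 in ESC and 171 and 184 at day 7, -0.17 ± 0.26), and the intermediate filament gene Nes stood at 0.62 ± 0.29 without passing.

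Of 18 forebrain and eye field genes 2 were called higher and 0 lower, Zic1 and Lhx2. Zic1, a zinc-finger factor of the dorsal neural tube and forebrain, read 145 and 252 at day 7, 103 and 70.2 at day 3 and 18.1 and 3.86 in ESC. In ESC Lhx2, a LIM homeodomain factor of eye field and cortex, read 2.78 and 3.18, with 55.5 and 51.1 at day 3 and 63.4 and 137 at day 7. The ESC arrays lie at or near the floor for both. The differences were 3.00 ± 0.39 (adjusted p = 0.0371) for Zic1 and 2.54 ± 0.34 (adjusted p = 0.0384) for Lhx2. Over the list 7 of 18 genes had both day 7 arrays above both ESC arrays (26.6% of all genes) and 3 below, with a median of 0.05. Among members not called Six3 stood at -0.36 ± 0.30, Rax at -0.06 ± 0.31 and Hesx1 at 0.16 ± 0.31, the latter 2 within 2-fold. Otx2, expressed in epiblast and forebrain, read 2002 and 2466 in ESC and 3972 and 4509 at day 7 and was not called (0.92 ± 0.23, adjusted p = 0.117).

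Of 17 midbrain, hindbrain and caudal genes 2 were called higher and 0 lower, the Iroquois homeobox genes Irx3 and Irx5. At day 7 Irx3, which patterns the neural tube behind the forebrain, read 455 and 460.1, against 503 and 568 at day 3 and 52.0 and 43.6 in ESC. Its 4 SFEBq arrays lie together far above ESC (2.89 ± 0.22, adjusted p = 0.0221). Irx5 behaved likewise, with 38.7 and 27.3 in ESC and 157 and 177 at day 7 (1.91 ± 0.24, adjusted p = 0.0362). The retinoid-induced gene Hoxb1 stood at 11.9 and 1.79 in ESC, 509.9 and 1544 at day 3 and 54.5 and 75.6 at day 7, lower on both day 7 arrays than on both day 3 arrays. Against day 3 its difference was -3.50 ± 0.53 (adjusted p = 0.0863), and against ESC 1.85 ± 0.53 (adjusted p = 0.147). Meis2 was the 1 called of 9 TALE genes, and its relatives Meis1 (1.75 ± 0.44) and Pbx3 (1.97 ± 0.37) were not called.

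Retinoic acid genes included 2 called higher of 13 and 0 lower (0.753% and 0.286% of all genes), with a median of 1.09. Cyp26b1, which encodes an enzyme that breaks down retinoic acid, read 7.25 and 20.0 on the ESC arrays, 14.9 and 5.17 at day 3 and 189 and 369 at day 7. Stra8, a retinoid target best known from the entry of germ cells into meiosis, read 237 and 226 on the ESC arrays, 1791 and 2579 at day 3 and 838 and 986 at day 7. Cyp26b1 is above the ESC range on the day 7 arrays alone, and Stra8 is highest at day 3. Against ESC the differences were 3.28 ± 0.40 (adjusted p = 0.0362) and 1.90 ± 0.27 (adjusted p = 0.0393). The enzyme gene Cyp26a1 differed between the day 7 arrays, at 59.9 and 5.57 in ESC and 66.7 and 545 at day 7, and was not called (2.41 ± 1.05).

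Of 18 proneural and neuronal factor genes 2 were called higher, Nhlh2 and Hes6, and 0 lower. At day 7 Nhlh2, a helix-loop-helix factor of newborn neurons, read 206 and 985, against 19.7 and 1.13 at day 3 and 1.78 and 1.96 in ESC. It is near the floor on all arrays but the day 7 pair, which lie far apart from each other (4.72 ± 0.70, adjusted p = 0.0451). The proneural genes Neurog1 (0.56 ± 0.25), Neurog2 (0.36 ± 0.38) and Neurod1 (-0.87 ± 0.46) were not called. Among genes of neurons 1 of 20 was called higher and 1 lower. Nsg2, a neuronal endosome protein gene, read 165 and 340.4 at day 7, 141 and 168 at day 3 and 8.76 and 8.34 in ESC (difference 3.37 ± 0.35, adjusted p = 0.0291). In ESC Stmn2, a microtubule regulator gene of growing axons that is bright in these ESC, read 8317 and 13364, with 1472 and 1116 at day 3 and 1459 and 2505 at day 7 (difference -2.45 ± 0.37, adjusted p = 0.0462). Nsg2 was above ESC on all 4 SFEBq arrays and Stmn2 below it on all 4, the latter not called with its probe sets averaged (-2.28, adjusted p = 0.0536).

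Genes of the response to low oxygen had more members called higher than any other of the 37 lists. The lists were drawn with earlier results of these data known, so this rank depends on how they were drawn and is not independent support. When oxygen falls, hypoxia-inducible factors (HIF) escape hydroxylation by the Egln enzymes and switch on genes of oxygen sensing, collagen processing, mitochondrial turnover and glucose use. Of 17 measured genes of the hypoxia list 11 were called higher and 0 lower, beside 0.753% of all genes, and both day 7 arrays exceeded both ESC arrays in 16 of 17, beside 26.6% of all genes. The list median was 2.19 (2.01 and 2.37 in the 2 array sets). The summed signal of the 17 was 25386 and 24623 in ESC, 33055 and 31853 at day 3, and 67268 and 75027 at day 7. Day 7 was thus more than 2-fold above both other groups, and the 2 day 7 arrays lie close together.

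At day 7 Ndrg1, a gene induced by hypoxia and differentiation that is also a stress marker, read 3144 and 4037, against 293 and 174 at day 3 and 389.9 and 259 in ESC. ESC and day 3 overlap, and day 7 stands far above both. Against ESC the difference was 3.42 ± 0.34 (adjusted p = 0.0291) and against day 3, 3.88 ± 0.34 (adjusted p = 0.0495). P4ha1, a catalytic subunit of collagen prolyl hydroxylase, read 364 and 322 on the ESC arrays, 785 and 667 at day 3 and 2549.8 and 2544 at day 7. P4ha2, the other such subunit on the list, read 261 and 188 on the ESC arrays, 351 and 252 at day 3 and 1152 and 1404 at day 7. Both genes were clear of all other arrays at day 7. At day 7 Plod2, a collagen lysyl hydroxylase gene, read 3335 and 3275, against 1535 and 747 at day 3 and 659.9 and 534 in ESC. All 3 collagen-modifying enzyme genes were higher on both day 7 arrays than on any other array, with differences from ESC of 2.84 ± 0.23 (adjusted p = 0.0221), 2.44 ± 0.29 (adjusted p = 0.0317) and 2.45 ± 0.36 (adjusted p = 0.0451).

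Egln1, the main HIF prolyl hydroxylase gene, read 1561 and 1503 at day 7, 657 and 731 at day 3 and 346 and 161 in ESC (difference 2.61 ± 0.36, adjusted p = 0.0390). Egln3, its relative, had 488 and 216 in ESC and 1653 and 1588 at day 7 and was not called (2.26 ± 0.38, adjusted p = 0.0549). In ESC Ankrd37, a small ankyrin-repeat gene that HIF-1 induces, read 146 and 117, with 289 and 244 at day 3 and 839.9 and 1031 at day 7 (difference 2.69 ± 0.25, adjusted p = 0.0291). At day 7 Bnip3, whose product marks mitochondria for removal, read 13543 and 17482, against 6695 and 5672 at day 3 and 3631 and 2349 in ESC (difference 2.39 ± 0.30, adjusted p = 0.0362). Each of these genes was at an intermediate level at day 3.

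Ddit4, an mTORC1 inhibitor induced by hypoxia and other stresses, read 3145 and 3129.7 on the ESC arrays, 6286 and 8206 at day 3 and 13207 and 13303 at day 7. Ero1a, an oxidase of the endoplasmic reticulum that forms disulphide bonds, read 1519.7 and 1047 on the ESC arrays, 1619 and 1446 at day 3 and 5309 and 5444 at day 7. At day 7 Adm, a vasodilator peptide gene, read 502 and 515, against 164 and 94.0 at day 3 and 113 and 86.6 in ESC. Ddit4 was intermediate at day 3, while Ero1a and Adm were near ESC levels there. The differences from ESC were 2.07 ± 0.24 (adjusted p = 0.0291), 2.08 ± 0.26 (adjusted p = 0.0362) and 2.19 ± 0.30 (adjusted p = 0.0390), and the carbonic anhydrase gene Car12 stood at 2.08 ± 0.24 (adjusted p = 0.0291; 0.85 with its probe sets averaged, adjusted p = 0.132). The 6 members not called were Egln3, Higd1a (1.15 ± 0.26), Vegfa (0.88 ± 0.22, with 423 and 438 in ESC and 768 and 845 at day 7), Mxi1 (0.72 ± 0.30), Car9 (0.47 ± 0.27) and the histone demethylase gene Kdm3a (-0.27 ± 0.30), the 1 value below 0. With probe sets averaged 11 members were also called, Egln3 in place of Car12. Bnip3l, the other gene listed, was not analysed here. Leaving out any of the 6 arrays in turn ended all 11 calls after adjustment, but 14 or 15 of the 17 stayed higher at an unadjusted p under 0.05, and the median ranged from 1.98 to 2.35 over all settings tried.

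**Figure D4:**
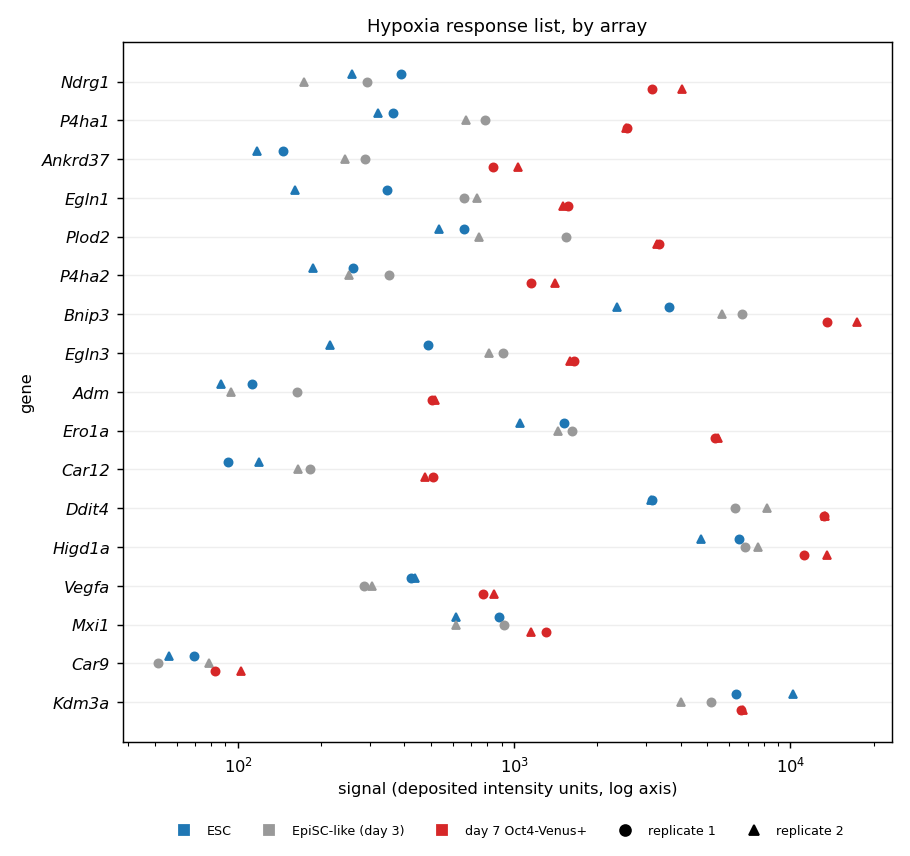
Signal on each of the 6 arrays (log x axis) of the 17 measured hypoxia response genes, ordered by their difference between day 7 and ESC. Day 7 (red) lies right of ESC (blue) in 16 of 17 genes, and the day 3 arrays (grey) lie between for P4ha1, Ankrd37, Egln1, Bnip3 and Ddit4 but beside ESC for Ndrg1.

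HIF binds the letters ACGTG or GCGTG. The promoters of 3 called hypoxia genes are shown with that of Pygl, the 250 bases before the RefSeq start (GRCm38.p6), with ACGTG on either strand in capitals.

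P4ha1, chr10:59323046-59323295, plus strand: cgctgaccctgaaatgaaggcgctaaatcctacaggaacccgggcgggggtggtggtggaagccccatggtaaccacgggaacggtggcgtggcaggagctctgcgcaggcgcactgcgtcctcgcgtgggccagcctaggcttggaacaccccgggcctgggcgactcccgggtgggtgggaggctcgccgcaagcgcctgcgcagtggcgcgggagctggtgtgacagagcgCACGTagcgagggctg

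Ankrd37, chr8:45999851-46000100, minus strand: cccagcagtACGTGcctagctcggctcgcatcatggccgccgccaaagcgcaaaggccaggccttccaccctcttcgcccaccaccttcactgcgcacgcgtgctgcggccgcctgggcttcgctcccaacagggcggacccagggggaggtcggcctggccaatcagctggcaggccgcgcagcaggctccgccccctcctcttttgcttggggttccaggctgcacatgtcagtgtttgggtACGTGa

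Bnip3, chr7:138909507-138909756, minus strand: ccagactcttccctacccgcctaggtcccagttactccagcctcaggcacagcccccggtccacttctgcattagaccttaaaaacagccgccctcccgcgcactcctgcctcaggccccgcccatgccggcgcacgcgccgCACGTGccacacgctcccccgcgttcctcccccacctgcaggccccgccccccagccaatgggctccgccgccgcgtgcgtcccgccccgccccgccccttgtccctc

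Pygl, chr12:70227684-70227933, minus strand: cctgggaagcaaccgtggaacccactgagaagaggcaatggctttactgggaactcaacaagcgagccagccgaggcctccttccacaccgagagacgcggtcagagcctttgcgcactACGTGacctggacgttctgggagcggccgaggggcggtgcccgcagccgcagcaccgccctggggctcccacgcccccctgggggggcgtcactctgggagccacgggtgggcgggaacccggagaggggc

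In P4ha1 and Pygl there is 1 match, in P4ha1 on the opposite strand 16 bases before the start. Ankrd37 has 2 separate matches, one of them 6 bases before the start. The 2 matches of Bnip3 overlap in the palindrome CACGTG. RefSeq promoters were found for 15 of the 17 measured hypoxia genes, and Ndrg1 and Plod2 matched no entry. ACGTG was present in at least 1 promoter of 11 of those 15 genes, and of 7 of the 9 called genes that had one. Counted by promoter, it was present in 12 of the 20 of these genes, as against 16.6% of 32851 mouse promoters. GCGTG was present in 11 of the 20 promoters and in 28.2% of all. The list was drawn up from genes of the response to low oxygen, so its share of these letters is not a result of these arrays. The letters alone do not show that HIF bound there.

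Of 17 glucose uptake and glycolysis genes 1 was called higher and 0 lower (0.753% and 0.286% of all genes), with a median of 0.52. Both day 7 arrays exceeded both ESC arrays in 14 of 17, beside 26.6% of all genes. Aldoc, the brain-type aldolase gene, read 2712 and 2867 at day 7, 720.0 and 726 at day 3 and 765 and 492 in ESC (difference 2.15 ± 0.27, adjusted p = 0.0369). Its day 7 arrays stand alone, and ESC and day 3 overlap. The glucose transporter gene Slc2a1 read 13769.8 and 11848 in ESC and 23289.7 and 31965 at day 7 (1.09 ± 0.28, adjusted p = 0.119) and triose phosphate isomerase, Tpi1, stood at 1.15 ± 0.32, neither called. Pdk1, a HIF target that shunts pyruvate from mitochondria, was kept at 0.34 ± 0.24.

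Of 18 glycogen genes 1, Pygl, was called higher and 0 lower, with a list median of 0.57. The genes next to it in size were Ppp1r3c and Ppp1r3b, which encode scaffolds that bring phosphatase to glycogen and favour its synthesis. Ppp1r3c read 8.64 and 60.4 in ESC and 383 and 262 at day 7 and Ppp1r3b 53.9 and 23.4 in ESC and 142 and 178 at day 7, and both day 7 arrays exceed both ESC arrays for each gene. Neither was called (2.94 ± 0.52 and 1.74 ± 0.35). The branching enzyme gene Gbe1 (1.53 ± 0.25) and the synthase gene Gys1 (0.85 ± 0.23) also had day 7 above ESC without passing. The other phosphorylases went different ways, with Pygb, the brain form, at 0.36 ± 0.34 and Pygm, the muscle form, at -1.80 ± 0.31 and dim on all arrays.

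Genes of stress and of the cell cycle were touched at single points. Gadd45b, a stress-induced growth arrest gene, was the 1 called of 17 genes on the p53 and Gadd45 list. It read 612 and 661 in ESC, 437 and 407 at day 3 and 2866 and 2517 at day 7, with both day 7 arrays well above every other array (2.05 ± 0.22, adjusted p = 0.0291; against day 3, 2.63 ± 0.22, adjusted p = 0.0495). The p53 target gene Cdkn1a stood at 1.43 ± 0.26 and Mdm2 was kept at 0.05 ± 0.31. Of 16 genes of G1 progression Rb1 was called higher (728 and 697 in ESC and 2812 and 2542 at day 7; 1.88 ± 0.29, adjusted p = 0.0462; 1.01 with its probe sets averaged, adjusted p = 0.169), and the inhibitor genes Cdkn1c (1.95 ± 0.36) and Cdkn2a (2.02 ± 0.35) had day 7 above ESC without passing. On the list of immediate early and dissociation genes, which bears on the handling, 1 of 20, Ier3, was called, with a median of 0.11 (-0.10 to 0.84 over the settings tried). At an unadjusted p under 0.05, 7 of 20 were higher and 2 lower, beside 11.1% and 7.20% of all genes. Both day 7 arrays lay above both ESC arrays in 9 of 20 and below in 3, beside 26.6% and 23.5% of all genes. Values lay on both sides of 0, with Hspa1a at 354 and 53.8 in ESC and 1147 and 1359 at day 7 (2.98 ± 0.72, adjusted p = 0.110), Egr1 at 5403 and 2330.4 in ESC and 1482 and 1179.5 at day 7 (-1.41 ± 0.44, adjusted p = 0.171) and Fos at 0.32 ± 0.34. The part of handling in any call was not tested further.

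S100a6, Jam2 and Phlda2 fell, each the 1 called gene of its list. S100a6, a calcium-binding protein gene of proliferating and motile cells, read 2719 and 1899 in ESC, 229.9 and 277 at day 3 and 164 and 202 at day 7 (-3.53 ± 0.28, adjusted p = 0.0221) and is 1 of 21 S100, annexin and actin-binding genes, whose median was 0.02. Jam2, a junction protein gene, read 3778 and 4095 in ESC, 533 and 348 at day 3 and 808 and 1194 at day 7 (-1.98 ± 0.31, adjusted p = 0.0495; -1.18 with its probe sets averaged, adjusted p = 0.0986) and is 1 of 20 adhesion genes, with a median of 0.31. Cdh1, the epithelial cadherin gene, and Epcam were kept at 0.14 ± 0.24 and -0.10 ± 0.27. Phlda2, an imprinted gene that restrains placental growth, fell from 4249.9 and 4069 in ESC to 1524 and 1353 at day 7 (-1.52 ± 0.23, adjusted p = 0.0462) and is 1 of 20 imprinted genes, with a median of 0.51, so the list medians lie at or above 0. For S100a6 and Phlda2 the day 3 arrays lie close to day 7. Jam2 read higher on both day 7 arrays than on both day 3 arrays, without being called (1.16 ± 0.31 against day 3, adjusted p = 0.186). Among the 15 largest falls outside the lists were Pmel, a melanosome fibre gene (-2.97 ± 0.37, adjusted p = 0.0362), Cltb, the light chain b of clathrin (-2.60 ± 0.24, adjusted p = 0.0291), Calml4 (-2.60 ± 0.30, adjusted p = 0.0291), Lmna, which encodes the A-type lamins of the nuclear envelope (-2.59 ± 0.30, adjusted p = 0.0291; -1.28 with its probe sets averaged, adjusted p = 0.0731), and Zmat4 (-2.44 ± 0.32, adjusted p = 0.0375; -1.15 with its probe sets averaged, adjusted p = 0.0656). Lmna read 616 and 706 in ESC, 87.3 and 47.2 at day 3 and 89.0 and 103 at day 7, low in all 4 SFEBq arrays.

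Fgf5, the growth factor gene that marks postimplantation epiblast, was the 1 called of 20 formative and primed genes. Its signals were 26.2 and 25.9 in ESC, 1009 and 1243 at day 3 and 409 and 215 at day 7, so that day 7 lies between ESC and day 3 without overlap (2.90 ± 0.33, adjusted p = 0.0291; 1.74 with its probe sets averaged, adjusted p = 0.144). At an unadjusted p under 0.05, 11 of the 20 were higher and 3 lower, beside 11.1% and 7.20% of all genes. Both day 7 arrays lay above both ESC arrays in 13 and below in 3, beside 26.6% and 23.5% of all genes. The list median was 1.17 against ESC and -0.79 against day 3. Among the named rises outside the lists, which leave out dim genes and clone names, the largest were those of Asb9, a ubiquitin ligase adaptor gene (3.38 ± 0.34, adjusted p = 0.0291), Tox3 (3.13 ± 0.47, adjusted p = 0.0458), Vopp1 (2.94 ± 0.42, adjusted p = 0.0424; 1.79 with its probe sets averaged, adjusted p = 0.0651), Greb1l (2.93 ± 0.27, adjusted p = 0.0291) and H2-Eb1, a class II histocompatibility gene (2.92 ± 0.32, adjusted p = 0.0291). H2-Eb1 read 97.8 and 154 in ESC, 126 and 164 at day 3 and 850.2 and 1258 at day 7, a rise seen on the day 7 arrays alone, and the other 4 read above both ESC arrays at day 3 too.

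Against day 3, limma called 4 genes higher (0.0220%) and 3 lower (0.0165%), with a smallest adjusted p of 0.0495. The 2 comparisons share the day 7 arrays. Besides Ndrg1 and Gadd45b the higher genes include Gad1 and 1 known by a clone name. In ESC Gad1, which makes the transmitter GABA, read 259.9 and 112, with 39.3 and 24.5 at day 3 and 937 and 939.7 at day 7 (difference 4.33 ± 0.39 against day 3). Against ESC it stood at 2.35 ± 0.39 (adjusted p = 0.0551). Its day 7 arrays nearly coincide and exceed all others. At day 7 Gbx2, a homeobox gene of naive cells and of the anterior hindbrain, read 102 and 93.3, against 1173 and 1707 at day 3 and 491 and 305 in ESC (difference -3.65 ± 0.32 against day 3). Myrf, a membrane-bound transcription factor gene known from myelinating cells, read 679.5 and 911 on the ESC arrays, 1674 and 2147 at day 3 and 242 and 228 at day 7 (difference -2.93 ± 0.26). Tnfsf11, a cytokine gene of the TNF family, read 115 and 86.4 on the ESC arrays, 509 and 387 at day 3 and 48.8 and 41.1 at day 7 (difference -2.92 ± 0.26). These 3 genes peak at day 3 and lie at day 7 below both other groups.

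Germ cell genes held 2 called higher of 13, Dazl and Stra8, and 0 lower, with a median of 0.47. At day 7 Dazl, an RNA-binding protein gene of germ cells, read 2509 and 2048, against 1462 and 1052 at day 3 and 447 and 389 in ESC (difference 2.40 ± 0.27, adjusted p = 0.0291). Dazl rose over the groups without overlap. The primordial germ cell regulators Prdm1 (646 and 565 in ESC and 686 and 464 at day 7; -0.09 ± 0.30) and Tfap2c (4482 and 3656 in ESC and 3864 and 2918 at day 7; -0.27 ± 0.34) were not called, and Prdm1 was kept within 2-fold. Of 13 mesendoderm genes 1, Nkx1-2, a homeobox gene of the caudal epiblast, was called higher from its brightest probe set (21.0 and 20.0 in ESC and 109 and 132 at day 7; 1.90 ± 0.26, adjusted p = 0.0390) but not from the mean of its 3 (0.17 with its probe sets averaged, adjusted p = 0.743), and Eomes (1.22 ± 0.38) and Mixl1 (-1.10 ± 0.26) were not called. In neural crest the 1 called of 12 was Pax3, which is also a neural tube gene, and Sox10 read 68.5 and 33.0 in ESC and 64.2 and 13.6 at day 7 (-0.40 ± 0.57). Limma called 0 of 13 trophoblast, 0 of 14 mesenchyme and 0 of 13 blood and endothelium genes, and at an unadjusted p under 0.05 there were 4 higher and 1 lower, 2 and 0, and 4 and 1 (11.1% and 7.20% of all genes). Their summed signals were 6133 and 6685, 10222 and 11963, and 1467 and 1354 on the day 7 arrays, against 6574 and 5597, 7863 and 12263, and 1534 and 1115 in ESC.

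Endoderm and neuronal transcripts set the 2 day 7 arrays apart from each other. Of 21 primitive and visceral endoderm genes limma called 0 in either direction (9 higher and 0 lower at an unadjusted p under 0.05, beside 11.1% and 7.20% of all genes), with medians of 0.20 in the first and 1.69 in the second array set. Sox17, the endoderm transcription factor, read 111 and 751 at day 7, 39.7 and 19.3 at day 3 and 49.3 and 39.1 in ESC. In ESC Ttr, the carrier protein of visceral endoderm, read 9.31 and 24.7, with 1.48 and 23.8 at day 3 and 89.6 and 779 at day 7. At day 7 Col4a1, a basement membrane collagen, read 1853 and 7417, against 418 and 322 at day 3 and 541 and 380.5 in ESC. Each is severalfold higher on day 7 replicate 2 than on replicate 1, which is itself above both ESC arrays. The summed signal of the list was 15808 and 22841 in ESC, 9473 and 12369 at day 3, and 16177 and 42668 at day 7. Its median difference is 0.03 without day 7 replicate 2 and 1.89 without replicate 1. Apoa1 read 10.8 and 22.3 in ESC and 3.74 and 108 at day 7 and Cer1 24.3 and 4.70 in ESC and 8.01 and 16.6 at day 7, so that Cer1 is near the floor on all 4 arrays and Apoa1 on day 7 replicate 1.

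The neuron list showed the same contrast of arrays, with set medians of -0.14 and 2.28 and summed signals of 7221 and 13578 at day 7. Its median without day 7 replicate 2 is 0.26. Dcx, a microtubule protein gene of migrating neurons, read 2.57 and 33.4 in ESC and 78.3 and 604 at day 7 and the vesicular glutamate transporter gene Slc17a6 17.4 and 12.7 in ESC and 24.7 and 258 at day 7. Nhlh2, Nr2f1 and Fabp7, given above, were also higher on day 7 replicate 2 than on replicate 1, as was Cyp26a1. Day 7 replicate 2 read higher than replicate 1 in 20 of the 20 neuron genes and 20 of the 21 endoderm genes, in 85 of the 137 genes called higher, in 7 of the 11 called hypoxia genes and in 54.9% of all genes. The median log2 difference between these arrays was 0.88 over the neuron list, 1.61 over the endoderm list, 0.10 over the genes called higher and 0.04 over the called hypoxia genes, beside 0.05 over all genes. The part of endoderm cells and neurons in the values of that array was not tested.

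**Figure D5:**
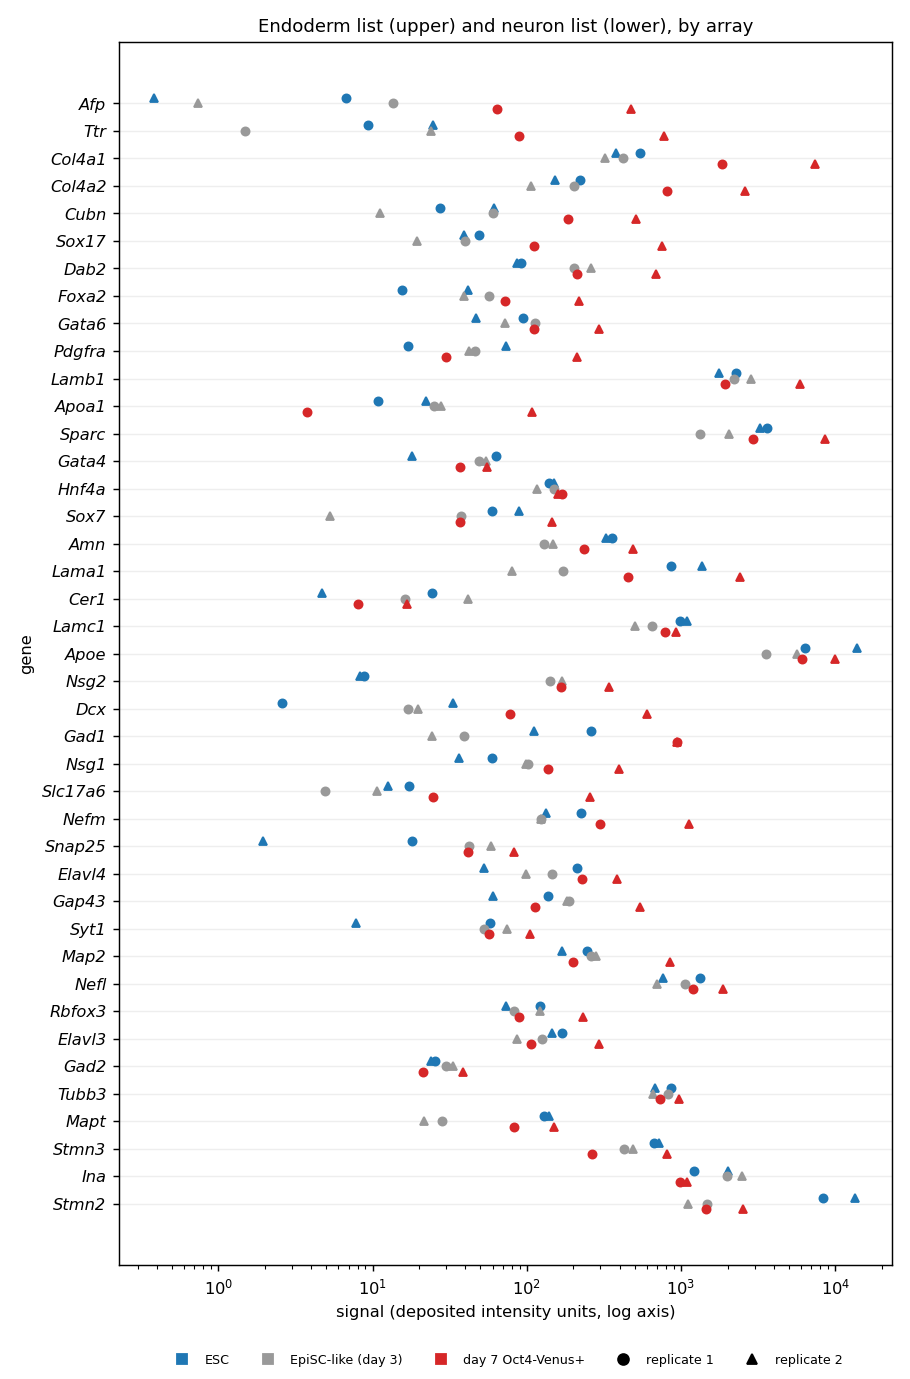
Signal on each of the 6 arrays (log x axis) of all measured genes of the endoderm list (upper block, Afp to Apoe) and of the neuron list (lower block, Nsg2 to Stmn2), each ordered by its difference between day 7 and ESC. Day 7 replicate 2 (red triangles) lies right of day 7 replicate 1 (red circles) for most genes of both lists, such as Sox17, Ttr, Dcx and Slc17a6, while the circle and the triangle of Gad1 coincide.

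These calls rest on 2 arrays a group. With the array number as a block, with only the 4 compared arrays, or with a pseudocount of 1, limma called 0 genes in either direction (smallest adjusted p = 0.0665, 0.0724 and 0.0985). Leaving out ESC replicate 1 or 2, EpiSC-like replicate 1 or 2, or day 7 replicate 2 also gave 0, and leaving out day 7 replicate 1 gave 10 higher and 0 lower.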

How the data were processed

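RNA of sorted cells was hybridised to Affymetrix 3' expression arrays, 2 per group. Each deposited value is the signal intensity of a probe set on a linear scale, scaled so that the mean after trimming 2% at each end is about 500.0 on each array. The submitters' processing notes name Affymetrix Expression Console (version 1), and its role, algorithm and genome build are not given in the sources used here. Arrays give no read depth, so their number limits the precision.

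Of 45101 probe sets, 64 controls were left out, 34945 had 1 gene in the platform annotation, 932 several and 9160 none; RefSeq held 34741 of the 34945 by identifier and changed 0 symbols. The brightest probe set stood for each of 18193 genes. Differences were fitted with limma 3.58.1 in R 4.3.3 on log2(signal + 16), with 3 group means, eBayes and Benjamini-Hochberg adjustment, two-sided. The code was tested on simulated data.

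The genes named are the given marks, Pou5f1, Pecam1, the 15 largest rises and the 15 largest falls of called genes bright enough in either group to reach the median of all genes (clone names left out), called members of 37 lists, any other list member as a value, 10 kept genes, and up to 8 genes called against day 3 in each direction. The members and lists were chosen with earlier results of these data known, and no list was tested as a set. Promoters are RefSeq sequences of GRCm38.p6. Alternatives were the pseudocount, filters on dim genes, scaling, the arrays fitted, the array number as a block, the mean over probe sets, a trend in eBayes and leaving out each array; the count of hypoxia genes under them was added after seeing the data.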

Additional observations from a re-analysis of the deposited data

How the results depend on the processing

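The main counts are 137 genes higher and 52 lower against ESC, 4 higher and 3 lower against day 3, and 11 hypoxia genes higher. In the same order they became 471, 208, 123, 83 and 14 with a pseudocount of 64; 427, 140, 89, 55 and 12 with genes under the 25th percentile of signal left out; 551, 292, 195, 120 and 14 with those under the median left out; and 527, 264, 119, 80 and 14 with a trend in eBayes. Centring gave 92, 82, 5, 5 and 11, quantile normalization 91, 55, 0, 0 and 11, and the mean over probe sets 110, 48, 4, 4 and 11. All 5 counts were 0 with a pseudocount of 1, with only the 4 arrays compared, and with the replicate number as a block; with the block the smallest adjusted p was 0.0665 against ESC (2323 higher and 1597 lower at an unadjusted p under 0.05) and 0.124 against day 3. Leaving out each array gave 0 to 10 genes higher and 0 to 0 lower against ESC, 0 to 0 in both directions against day 3 and 0 to 0 hypoxia genes; the cause of these losses was not tested, beyond the smaller number of arrays. The numbers do not establish pairs: deviations of same-numbered arrays from their group means correlated across genes with r of 0.28 for ESC and day 3, 0.08 for ESC and day 7 and 0.10 for day 3 and day 7. Of the 62 called genes that were named, 0 changed direction in any setting, and calls were lost by 15 with probe sets averaged, 10 under quantile normalization and 3 after centring. Pecam1, which was not called, ranged from -0.24 to 0.81 when an array was left out, reversing to -0.24 without ESC replicate 2 and to -0.04 without day 7 replicate 1. Of the 10 kept genes, 4 stayed bounded within 2-fold after centring, 2 without ESC replicate 1, 7 without ESC replicate 2, 5 without day 7 replicate 1 and 4 without day 7 replicate 2, and 9 or 10 in the other settings.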

Other observations

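Outside the lists, further genes were looked up after their values had been seen, and they are given as values only. Their values with probe sets averaged were not examined. Among the called ones Stc1, Tex13b, Smarca2 and Pou3f4 were dim, below the median level of all genes in both ESC and day 7. Several relate to low oxygen. Pfkfb3, whose product drives glycolysis and which HIF induces, had 190.0 and 148 in ESC and 1435 and 1059 at day 7 (2.76 ± 0.31, adjusted p = 0.0291). Mgarp, a mitochondrial gene, had 222 and 260.1 in ESC and 1321 and 1560.5 at day 7 (2.50 ± 0.25, adjusted p = 0.0291), and Stc1, a secreted glycoprotein gene, 11.5 and 31.2 in ESC and 137 and 183 at day 7 (2.27 ± 0.33, adjusted p = 0.0442). The repressor gene Bhlhe40 stood at 1.72 ± 0.26 (adjusted p = 0.0459) and Ccng2, an unconventional cyclin gene of resting cells, at 2.11 ± 0.32 (adjusted p = 0.0459). For Pfkfb3, Mgarp, Stc1, Bhlhe40 and Ccng2 both day 7 arrays exceed all 4 others.

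Genes best known from the germ line were also among the calls. The helix-loop-helix gene Sohlh2 read 364 and 366 in ESC, 1299 and 1608 at day 3 and 1885 and 1680.3 at day 7 (2.24 ± 0.23, adjusted p = 0.0291). Rec114, a gene of meiotic recombination, had 441 and 451 in ESC, 813 and 990.4 at day 3 and 1833 and 2430.3 at day 7 (2.20 ± 0.25, adjusted p = 0.0291), and Aurkc, a meiotic Aurora kinase gene, 607 and 562 in ESC, 779 and 1144 at day 3 and 1847 and 1968 at day 7 (1.68 ± 0.26, adjusted p = 0.0495). The Tudor-domain gene Tdrd7 stood at 2.68 ± 0.37 (adjusted p = 0.0390). For Sohlh2, Rec114, Aurkc and Tdrd7 all 4 SFEBq arrays exceed ESC, and both day 7 arrays exceed both day 3 arrays. Nlrp4a, with 79.1 and 56.5 in ESC, 104 and 64.6 at day 3 and 306 and 265 at day 7 (1.86 ± 0.29, adjusted p = 0.0498), had day 3 overlapping ESC, and Tex13b, with 10.6 and 11.7 in ESC, 96.4 and 45.3 at day 3 and 109 and 93.5 at day 7 (2.11 ± 0.33, adjusted p = 0.0493), had day 3 overlapping day 7. The chromatin genes Smarca2 (17.4 and 2.23 in ESC and 127 and 201 at day 7; 2.84 ± 0.40, adjusted p = 0.0402), Bmi1 (1.85 ± 0.23, adjusted p = 0.0362) and L3mbtl3 (1.78 ± 0.23, adjusted p = 0.0375) were called higher too, with day 3 above ESC for each.

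The class III POU genes, relatives of Oct4, went separate ways. Pou3f1 read 263 and 89.7 in ESC, 5624 and 5212 at day 3 and 1289 and 556 at day 7 (2.33 ± 0.55, adjusted p = 0.107), peaking at day 3. Pou3f3 read 24.5 and 27.2 in ESC, 55.4 and 57.6 at day 3 and 201 and 277 at day 7 (2.59 ± 0.25, adjusted p = 0.0291) and Pou3f4 7.59 and 8.37 in ESC, 15.1 and 25.5 at day 3 and 51.3 and 67.2 at day 7 (1.64 ± 0.26, adjusted p = 0.0495), both highest at day 7. Pou3f2 stayed dim at 14.3 and 17.3 in ESC and 16.7 and 31.8 at day 7. Beside H2-Eb1, the class II histocompatibility genes H2-Ab1 (6.55 and 67.2 in ESC and 236 and 393 at day 7; 2.89 ± 0.61, adjusted p = 0.0853) and H2-Aa (33.5 and 1.61 in ESC and 60.0 and 143 at day 7; 1.90 ± 0.59, adjusted p = 0.172) were not called, and neither was Cd74, which encodes their invariant chain (119 and 175 in ESC and 90.6 and 40.7 at day 7; -1.05 ± 0.46).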
